A study of Homo sapiens with 8 samples.

Results

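Rapamycin alone was compared with its solvent, DMSO, in MNNG/HOS, a human osteosarcoma cell line derived from HOS cells by chemical transformation. The comparison takes 4 of the 8 arrays of the study, chosen by the group their sample records name. There were 2 arrays of cells given rapamycin at 12.5 nM and 2 arrays of cells given DMSO. The other 4 arrays held cells given JQ1 plus rapamycin, and JQ1 alone, 2 of each, with rapamycin at the same dose and JQ1 at a labelled dose of 7.5 mM. JQ1 displaces BET bromodomain proteins from acetylated chromatin. All arrays come from a single cell line, and the labels give neither the treatment time nor the source of replicates. If replicates are not separate cultures, the p-values reflect technical spread only.

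Rapamycin binds the small immunophilin FKBP1A, and the pair docks onto the kinase MTOR and inhibits mTOR complex 1. That complex joins growth factor and amino acid signals to ribosome production, translation, lipid synthesis and the repression of autophagy, and its inhibition slows the passage of many cells from G1 into S phase. The endoplasmic reticulum (ER) has a stress response of its own, the unfolded protein response, in which the transcription factors XBP1 and ATF6 raise chaperone and degradation genes. A related pathway, the integrated stress response, runs through phosphorylated eIF2alpha and the transcription factor ATF4 to genes of amino acid supply and to DDIT3, ATF3 and PPP1R15A.

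Values are normalized probe intensities from the authors' value table, in which low values were set to a floor of 20. Between 55.7% and 58.6% of the 47304 probes lay at the floor on each array, and mean intensity per array was 455.5 to 481.6. The replicate arrays correlated at 0.978 for rapamycin and 0.977 for DMSO over the log2 values of 23860 probes. These probes lay above the floor on at least 2 of the 8 arrays, and those with 1 gene symbol covered 12759 genes. Arrays with the same replicate number deviated together, with correlations of 0.42 to 0.55 across genes between the replicate differences of the 6 pairs of groups, and the fit therefore carried the replicate number as a block. A second deposited table, of non-normalized signals, holds the same arrays under other names. Each of its columns matched a single array of the value table, at a rank correlation of at least 0.997, and 6 of the 8 carried another group or replicate name there. By those header names the 2 arrays used here as rapamycin are a JQ1 and a JQ1 plus rapamycin array, DMSO replicate 2 is a rapamycin array, and the 4 arrays named with rapamycin are the 4 arrays of replicate 2. The names of the sample records were used throughout. As a partial check of those names, HEXIM1, a gene widely used as a marker of BET inhibition, read 20 and 20 on the rapamycin arrays, 24.7 and 25.8 on the DMSO arrays, 38.6 and 76.9 with both drugs and 55.5 and 176 with JQ1 alone. The rapamycin arrays stood lowest in that order, below both groups given JQ1. As a marker of JQ1, and at or near the floor on these 4 arrays, HEXIM1 cannot tell rapamycin arrays from DMSO arrays. The names of those 2 groups thus rest on the sample records.

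At a Benjamini-Hochberg adjusted p under 0.05 from limma, 44 of the 12759 genes were called between rapamycin and DMSO (0.345%). Of these, 30 were higher with rapamycin (0.235% of genes tested) and 14 were lower (0.11%), and this lean to higher calls depended on the settings. The split was 312 higher and 229 lower on the non-normalized signals, 206 and 167 with 50 added before log2, and 354 and 359 with a trended robust variance. By fold, the 5 largest called rises were those of GDF15, DNAJB9, RGS16, HBP1 and KLHL24. DNAJB9, FICD, XBP1 and SYVN1 are on the unfolded protein response list and GDF15, PPP1R15A and CREBRF on that of integrated stress response effectors. Those that fell included the BMP feedback genes SMAD6 and ID3, the WNT feedback gene AXIN2, the cell cycle phosphatase CDC25A and the developmental transcription factors TFAP2A, NR2F1 and SOX18. Called rises were 2.33-fold to 13.9-fold and called falls 2.76-fold to at least 11.1-fold, and the 2 arrays of each group did not overlap for any of the 44, nor for 36.4% of all genes tested. Without the replicate block 3 genes were called (0.0235%), DNAJB9, CREBRF and KLHL14. Leaving out any 1 of the 8 arrays, whichever it was, left 0 called genes under limma at the adjusted threshold, although all 44 kept their direction and 1455 to 2330 genes had an unadjusted p under 0.05. Where a JQ1 or combination array was left out, the direction could not change, since the rapamycin minus DMSO estimate stays the same. Before adjustment, 2260 genes (17.7%) had a p under 0.05, 1126 of them higher (8.83%) and 1134 lower (8.89%), and without the block 1262 did (9.89%). List counts at an unadjusted p under 0.05 are to be read beside the 17.7%, 8.83% and 8.89% of the fit with the block.

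**Figure D1:**
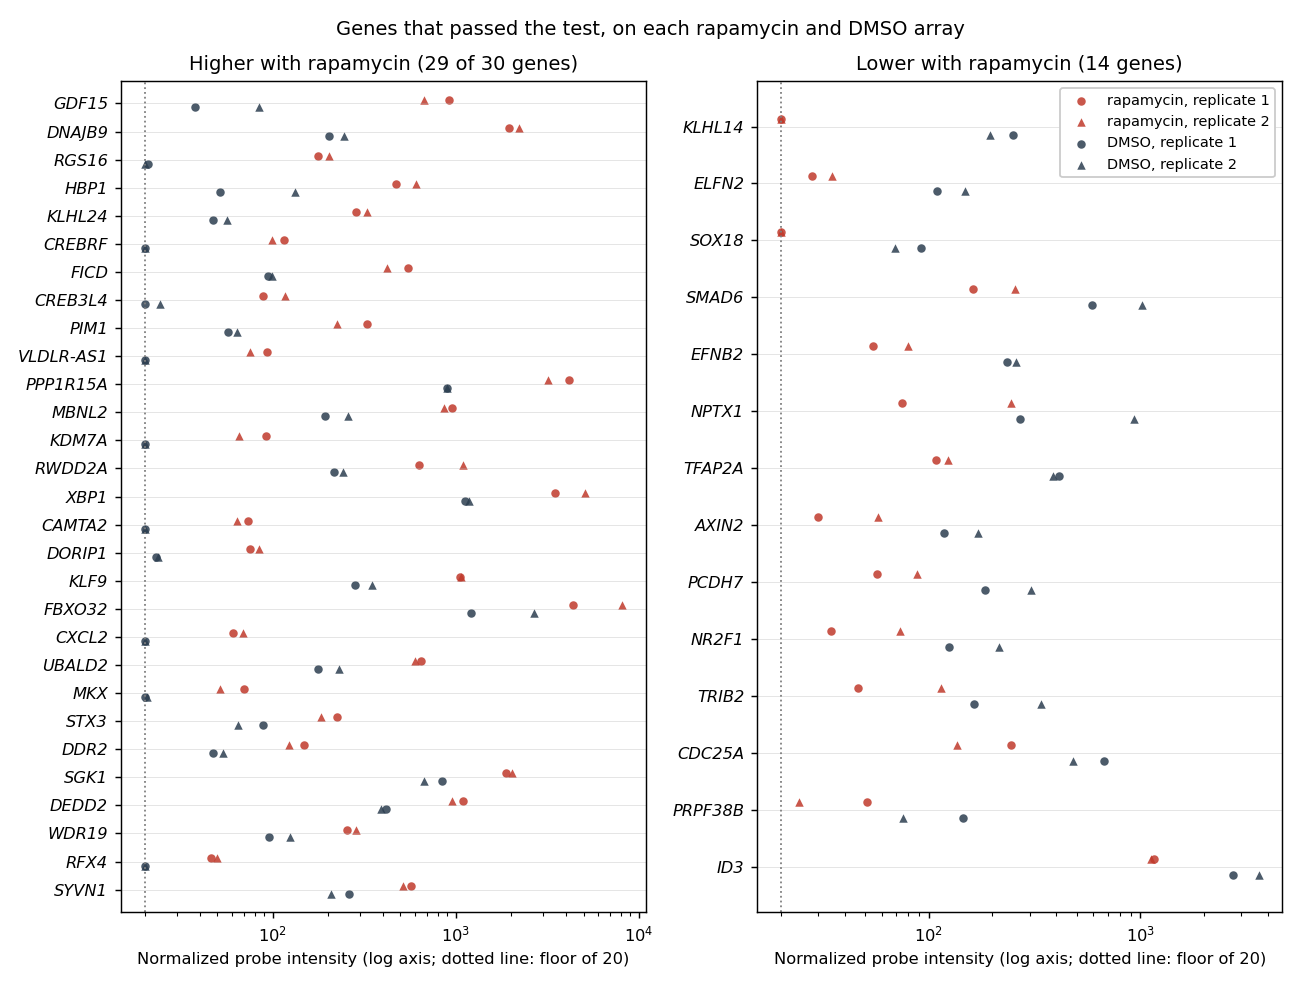
Normalized probe intensity (log axis) of 43 of the 44 called genes on each array, with rapamycin in red above DMSO in dark grey, circles for replicate 1 and triangles for replicate 2. DNAJB9 stands at 1949 and 2223 on the rapamycin arrays and at 203 and 246 on the DMSO arrays, and KLHL14 lies at the floor, marked by the dotted line, on both rapamycin arrays.

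Promoters of some stress genes are shown as a description, with short elements marked. Whether any element took part in the changes was not tested. The stretches are the last 160 bases before the annotated start of each gene, 5′ to 3′ on the gene's strand, from RefSeq on GRCh38.p14. In FICD, XBP1 and HSPA5 the capitals mark the ER stress response element, searched as CCAAT and CCACG with 9 bases of any kind between them, the form to which ATF6 binds with the CCAAT factor NF-Y. In DNAJB9 they mark its CCACG half-element on either strand, and in PPP1R15A the cyclic AMP response element TGACGTCA, a site of ATF/CREB family factors. The DNAJB9 stretch is chr7:108569714-108569873 on the plus strand, FICD is chr12:108515117-108515276 on the plus strand, XBP1 is chr22:28800570-28800729 on the minus strand, HSPA5 is chr9:125241344-125241503 on the minus strand and PPP1R15A is chr19:48872261-48872420 on the plus strand.
DNAJB9: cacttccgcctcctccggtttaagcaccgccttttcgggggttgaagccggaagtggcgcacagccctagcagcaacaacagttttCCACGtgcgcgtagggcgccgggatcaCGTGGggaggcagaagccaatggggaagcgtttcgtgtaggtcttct
FICD: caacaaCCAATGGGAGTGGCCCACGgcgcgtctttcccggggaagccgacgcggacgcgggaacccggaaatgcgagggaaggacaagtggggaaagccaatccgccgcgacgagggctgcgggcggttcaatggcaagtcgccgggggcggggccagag
XBP1: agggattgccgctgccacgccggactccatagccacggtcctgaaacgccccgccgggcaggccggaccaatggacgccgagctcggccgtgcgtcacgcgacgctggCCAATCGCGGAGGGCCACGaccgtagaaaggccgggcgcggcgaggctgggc
HSPA5: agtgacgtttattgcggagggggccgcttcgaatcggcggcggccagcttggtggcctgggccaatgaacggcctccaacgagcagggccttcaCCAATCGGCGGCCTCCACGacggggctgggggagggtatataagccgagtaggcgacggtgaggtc
PPP1R15A: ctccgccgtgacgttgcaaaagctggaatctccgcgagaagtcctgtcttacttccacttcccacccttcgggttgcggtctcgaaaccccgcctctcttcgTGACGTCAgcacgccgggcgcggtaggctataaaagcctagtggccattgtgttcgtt

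On either strand of the 250 bases before the start, the full ER stress response element was found in 25 of 27305 genes with a RefSeq window (0.0916%) and in 16 of the 10150 tested genes with one (0.158%). Among the 20 measured genes of the unfolded protein response list 8 held it (40%), and among the 28 genes called higher that had a window 2 did, FICD and XBP1. The 16 tested genes with the element had log2 changes of -0.09 (LINC02213) to 2.32 (FICD), 15 of them above 0, with FICD and XBP1 called. Above 0 were 48.2% of all tested genes with a window. Since 8 of the 16 are on the unfolded protein response list, the count partly restates that list. Of the 8 outside it, 7 lay above 0, none was called and 1 had an unadjusted p under 0.05. The shorter CCACG, which the full element contains, was in 37.5% of all genes and 50.7% of tested genes with a window. Its presence in DNAJB9 is therefore a description only. The cyclic AMP response element was in 2.03% of genes and 3.49% of tested genes with a window. Among the 28 genes called higher that had a window it was in PPP1R15A alone (3.57%), near the share of tested genes. The ATF4 type of element TGATGNAA was in 3.89% of genes and 2.52% of tested genes with a window. It was in 8 of the 43 integrated stress response genes with a window (18.6%), ATF3, CHAC1, ASNS, CEBPG, SLC1A5 and the synthetase genes AARS1, GARS1 and IARS1. The 256 tested genes with this element had a median log2 change of -0.005. Above 0 were 44.9% of them, beside 48.2% of all tested genes with a window. XBP1 has 2 windows, and the stretch shown above is from the first with a match. A match is a run of letters in the window, and no binding was measured.

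The ER folding and degradation genes lay above 0 throughout. All 20 measured genes of the unfolded protein response list had a positive log2 change, as did 50.3% of all genes, with a median of 0.61 against 0 over all genes, 4 rose and none fell, and 12 had an unadjusted p under 0.05. DNAJB9, the ER co-chaperone that restrains the stress sensor IRE1, read 1949 and 2223 on the rapamycin arrays, against 203 and 246 on the DMSO arrays. It rose 9.32-fold (log2 3.22, SE 0.16, adjusted p = 0.0018), with nearly the same change in both replicates. FICD, the enzyme that modifies and restrains the chaperone BiP, read 553 and 419 with rapamycin, against 94.5 and 98.9 with DMSO, and rose 4.98-fold (log2 2.32, SE 0.23, adjusted p = 0.026). XBP1, the transcription factor spliced by IRE1, read 3482 and 5061 with rapamycin, against 1128 and 1177 with DMSO. Its rise was 3.64-fold (adjusted p = 0.0485), and a second XBP1 probe gave a log2 change of 2.01. SYVN1, the ubiquitin ligase of ER-associated degradation, read 574 and 518 with rapamycin, against 261 and 209 with DMSO, and rose 2.33-fold (adjusted p = 0.046). The chaperone gene HSPA5, which encodes BiP itself, had 1338 and 1494 with rapamycin, against 626 and 744 with DMSO, a log2 change of 1.05 (SE 0.18) that did not pass (adjusted p = 0.067). CREB3L4, a membrane-bound transcription factor of the ER and outside the list, rose as well, with 88.2 and 117 on the rapamycin arrays, against 20 and 24.4 on the DMSO arrays. In all of these genes the rapamycin and DMSO arrays did not overlap, as in 36.4% of all genes tested.

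Effectors of the integrated stress response had the highest median of any list. The 16 measured members had a median log2 change of 1.54, 15 lay above 0, 3 rose, none fell, and 11 had an unadjusted p under 0.05. CHAC1, one of the 11, read 148 and 127 with rapamycin and lay at the floor on both DMSO arrays. Outside the rapamycin arrays it was above the floor on 1 array, with both drugs. It thus entered the test only through the rapamycin arrays, where it is high, and its place in these counts is a description. GDF15, a secreted stress cytokine that signals to the hindbrain, read 918 and 669.7 on the rapamycin arrays, against 37.6 and 84.4 on the DMSO arrays, and showed the largest called rise, 13.9-fold (log2 3.80, SE 0.41, adjusted p = 0.032). PPP1R15A, the phosphatase subunit that reverses eIF2alpha phosphorylation, read 4175 and 3195 with rapamycin, against 896 and 898 with DMSO, and rose 4.07-fold (adjusted p = 0.027). CREBRF, a regulator of the stress factor CREB3, read 116 and 99.2 with rapamycin and lay at the floor on both DMSO arrays. It rose at least 5.37-fold (log2 2.42, SE 0.18, adjusted p = 0.014), and a second CREBRF probe, also at the floor with DMSO, gave 2.55. DDIT3, which encodes the pro-apoptotic factor CHOP, had the largest log2 change of the 12759 genes, 4.24 (SE 0.71), with 2631 and 1524 on the rapamycin arrays and 120.3 and 92.9 on the DMSO arrays, and did not pass (adjusted p = 0.066). TRIB3, a pseudokinase induced by CHOP and ATF4, read 6057 and 2860 with rapamycin, against 277 and 585 with DMSO. Its arrays did not overlap but its SE was 1.04 and its adjusted p 0.16. ATF3, a transcriptional repressor of the pathway, had 226 and 249 with rapamycin, against 26.8 and 45.7 with DMSO (log2 2.76, adjusted p = 0.15). ATF4 itself, which is controlled mainly at translation, read 23020.5 and 22036 with rapamycin, against 12602 and 13753 with DMSO (log2 0.77, adjusted p = 0.18).

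Genes that supply amino acids had a median log2 change of 0.75 over 19 measured members, of which 16 lay above 0. None was called under limma, while 14 had an unadjusted p under 0.05, all above 0. CTH, the enzyme that makes cysteine from cystathionine, read 861 and 422 on the rapamycin arrays, against 40.4 and 113 on the DMSO arrays (log2 3.16, adjusted p = 0.083). The mitochondrial folate enzyme MTHFD2 had 3058 and 2625 with rapamycin, against 1218 and 1376 with DMSO, and the mitochondrial serine hydroxymethyltransferase SHMT2 had 5739 and 5727, against 3392 and 3438. SLC7A1, the cationic amino acid transporter, had a log2 change of 1.02. The arrays of these 4 genes, which were named for their small p, did not overlap between groups, nor did those of 36.4% of all genes tested. The cytosolic aminoacyl tRNA synthetases, which charge tRNAs, had a median of 0.21 over 18 members, 14 of them above 0 and 7 with an unadjusted p under 0.05, and none passed. EPRS1, the glutamyl-prolyl synthetase, read 3069 and 3177 with rapamycin, against 1947 and 2027 with DMSO (log2 0.65, adjusted p = 0.11), and WARS1 and GARS1, for tryptophan and glycine, had 0.70 and 0.69.

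**Figure D2:**
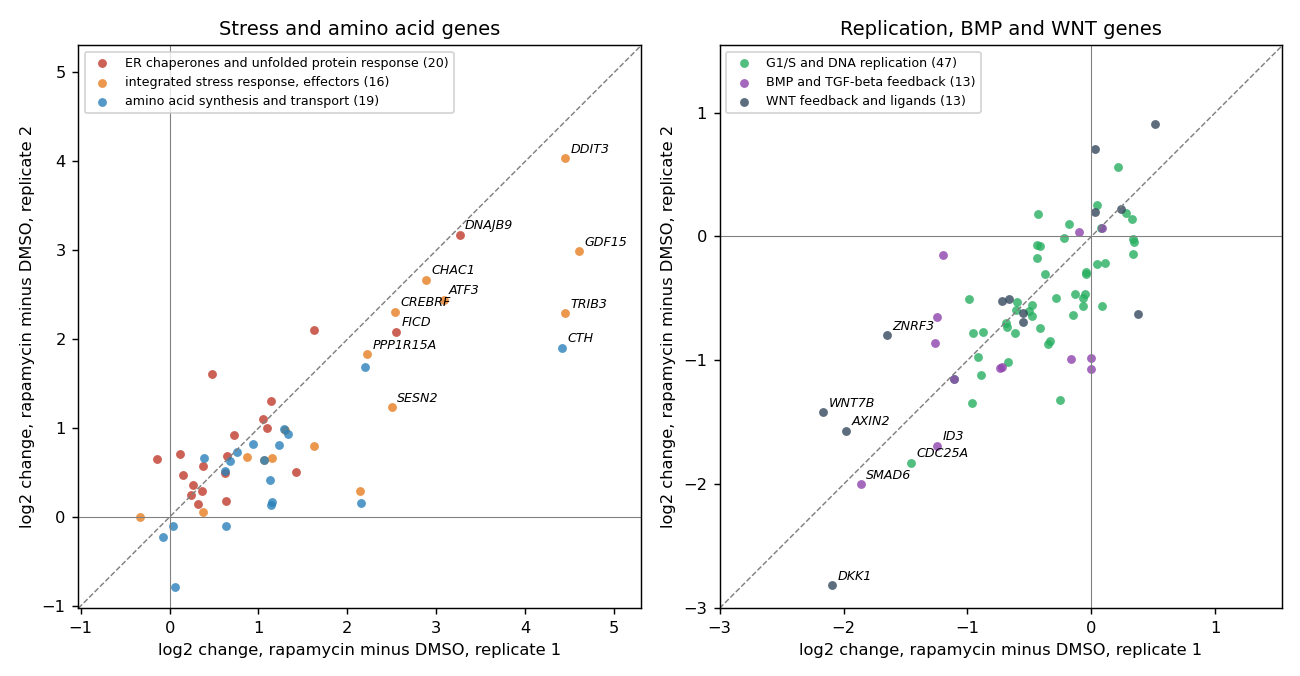
Log2 change, rapamycin minus DMSO, in replicate 1 (x axis) against replicate 2 (y axis), each point a gene, coloured by list, with the dashed line at equal change. DNAJB9 and DDIT3 sit near the dashed line, TRIB3 and CTH lie below it with smaller changes in replicate 2, and most points of the replication, BMP and WNT lists are below 0 in both replicates.

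The 27 measured mTOR pathway components had a median log2 change of 0.02, none passed, and 5 had an unadjusted p under 0.05, all above 0. At that threshold stood 17.7% of all genes, with 8.83% higher. FKBP1A, the drug's receptor, read 1570 and 2048 on the rapamycin arrays, against 1803 and 1698 on the DMSO arrays, so the groups overlapped, and MTOR read 503 and 338, against 471 and 338. RPTOR, the scaffold of mTOR complex 1, had 22.1 and 43.2 with rapamycin, against 33.5 and 84.5 with DMSO, near the floor in replicate 1. RRAGC, a Rag GTPase that brings the complex to the lysosome, had the smallest p of the list, with 539 and 499.5 with rapamycin, against 230 and 217 with DMSO (log2 1.21, SE 0.18, adjusted p = 0.052). RRAGD, another Rag GTPase, had a log2 change of 0.75, the folliculin partner FNIP1 0.87 and the autophagy kinase ULK1 1.34, none of which passed. Lysosome and autophagy genes had a median of 0.24 over 26 members, 22 above 0 and 9 with an unadjusted p under 0.05, and none was called. GABARAPL1, an autophagosome protein, read 378 and 416 with rapamycin, against 65.1 and 163 with DMSO (adjusted p = 0.089). The cholesterol transporter NPC1 had 489 and 480, against 223 and 211 (log2 1.16, adjusted p = 0.064).

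FBXO32, the atrophy ubiquitin ligase and a classic FOXO target, rose 3.31-fold, with 4357 and 8145 on the rapamycin arrays and 1217 and 2667 on the DMSO arrays (log2 1.73, SE 0.21, adjusted p = 0.035). Both arrays of replicate 2 read higher than their replicate 1 partners, and the change was close in the 2 pairs. HBP1, a transcriptional repressor that restrains the cell cycle, read 469.6 and 608 with rapamycin, against 51.9 and 132 with DMSO, and rose 6.45-fold (adjusted p = 0.033). A second HBP1 probe read 409 and 479 with rapamycin, against 70.3 and 86.9 with DMSO. KLHL24, a substrate adaptor of a ubiquitin ligase, read 286 and 328, against 47.2 and 56.2, and rose 5.95-fold (adjusted p = 0.033). The list of insulin receptor substrate and FOXO feedback genes had a median of 0.26 over 14 measured members, 10 of them above 0, with none called and 5 above 0 and 1 below at an unadjusted p under 0.05. IRS2, the insulin receptor substrate repressed by insulin signalling, had 169.9 and 111 with rapamycin, against 40.9 and 48.9 with DMSO (log2 1.62, adjusted p = 0.069). IRS1, the other substrate on the list, went the other way and was the 1 below, with a log2 change of -1.36 (adjusted p = 0.15). CCNG2, a cyclin of growth-arrested cells, had a log2 change of 2.33 with an SE of 0.64, and TXNIP, the thioredoxin inhibitor that limits glucose uptake, had 529.5 and 1160, against 80.1 and 120.4 (adjusted p = 0.085). Sterol and fatty acid synthesis genes had a median of 0.42 over 23 members, 19 above 0, with none called and 11 at an unadjusted p under 0.05. Among them INSIG1, the sterol sensor's retention protein, read 3502 and 4220 with rapamycin, against 828 and 1505 with DMSO (adjusted p = 0.12).

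Genes of the translation apparatus itself were near 0. The 55 measured cytosolic ribosomal protein genes had a median log2 change of 0.05 and none was called, with 2 above 0 and 1 below at an unadjusted p under 0.05. The 37 translation initiation and elongation factors had a median of -0.04, the 28 nuclear-encoded respiratory chain genes -0.06, the 25 glycolysis and hypoxia genes -0.02 and the 19 interferon-stimulated genes 0.00. None of these was called, and 2, 1, 3 and 3 of them in that order had an unadjusted p under 0.05, where 17.7% of all genes did. Nucleolar ribosome biogenesis genes lay lower, with a median of -0.27 over 28 members, 23 of them below 0, none called and 9 at an unadjusted p under 0.05, all below 0. RRS1, a ribosome assembly factor, read 1327 and 654 on the rapamycin arrays, against 2621 and 1451 on the DMSO arrays (log2 -1.07, adjusted p = 0.056). Rapamycin replicate 1 came close to DMSO replicate 2 but did not overlap it. Nucleotide synthesis genes had a median of -0.14 over 19 members, 17 below 0 and none called. At an unadjusted p under 0.05 there were 3 of them, beside 17.7% of all genes. CTPS1, the CTP synthase, had 1548 and 731, against 1984 and 1565.

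Genes that act at the start of S phase were mostly below 0. Of 47 measured G1/S and DNA replication genes 39 were below 0, with a median log2 change of -0.34, 1 fell, none rose, and 21 had an unadjusted p under 0.05, all below 0. In bulk RNA such as this, fewer cells in a phase and less RNA per cell cannot be told apart. CDC25A, the phosphatase that activates CDK2 at S phase entry, read 244 and 136 with rapamycin, against 671 and 481 with DMSO, and fell 3.12-fold (log2 -1.64, SE 0.20, adjusted p = 0.037). A second CDC25A probe gave -1.27. CHAF1A, a histone chaperone of replicating chromatin, had 113 and 91.2, against 242 and 202 (log2 -1.13, adjusted p = 0.052), and the flap endonuclease FEN1 had 1677 and 1564, against 3248 and 2684 (adjusted p = 0.080). Cyclin E1, CCNE1, read 120.4 and 48.5 with rapamycin, against 235 and 123 with DMSO, and cyclin D1, CCND1, read 5054 and 3825, against 9364 and 8313 (adjusted p = 0.094). The E2F element TTTGGCGC was in the 250-base windows of 7 of 40 genes of the list (17.5%), CDC25A among them. It was in 0.681% of all genes and 1.05% of tested genes with a window. CDK inhibitors and p53 targets had a median of 0.44 over 21 members, 20 of them above 0, none called, and 10 above 0 and 1 below at an unadjusted p under 0.05. CDKN1A, which encodes p21, read 4019 and 3365 with rapamycin, against 1849.6 and 1738 with DMSO (log2 1.04, adjusted p = 0.071), and CDKN1B, which encodes p27, read 479 and 615, against 313 and 358. G2/M and mitosis genes had a median of 0.03 over 40 members, none called and 4 at an unadjusted p under 0.05, all above 0. Of all genes 8.83% were higher at that threshold. MYC read 303 and 168, against 105 and 120.0 (log2 1.01, SE 0.46, adjusted p = 0.32).

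**Figure D3:**
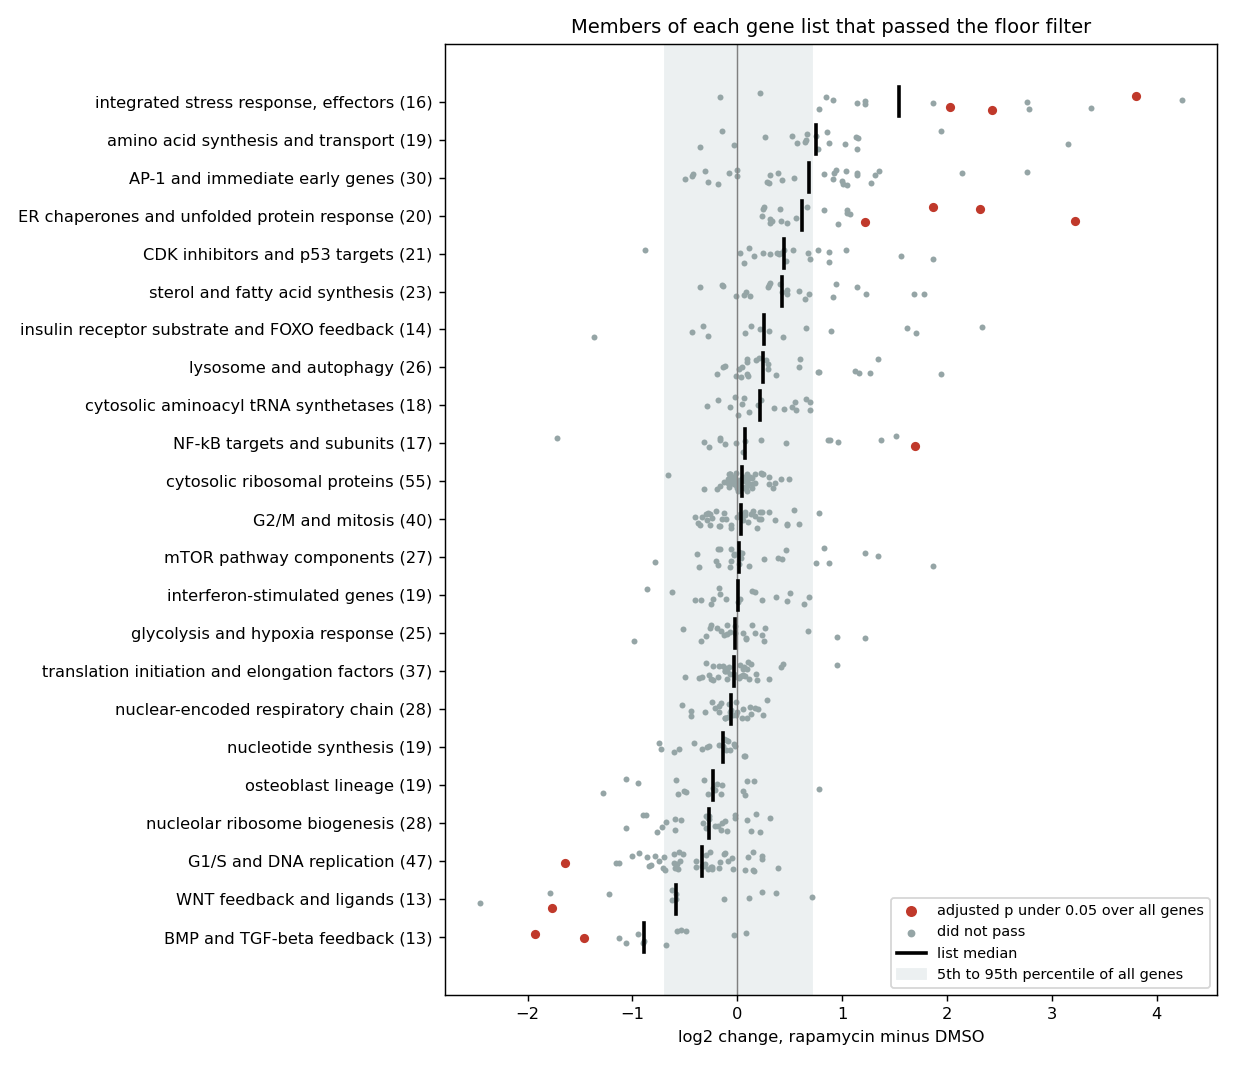
Log2 change, rapamycin minus DMSO, of the measured members of 23 gene lists, ordered by list median (black bars), with called genes in red and the others in grey over a band from the 5th to the 95th percentile of all genes (-0.69 to 0.72). Integrated stress response effectors stand at the top with a median of 1.54 and BMP and TGF-beta feedback genes at the bottom with -0.89.

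Feedback genes of BMP and WNT signalling were at the low end. Of 13 measured BMP and TGF-beta feedback genes 12 lay below 0, with a median log2 change of -0.89, 2 fell, none rose, and 7 had an unadjusted p under 0.05. SMAD6, the inhibitory SMAD that BMP signalling induces, read 162 and 256 on the rapamycin arrays, against 589 and 1023 on the DMSO arrays, and fell 3.81-fold (log2 -1.93, SE 0.26, adjusted p = 0.0486). ID3, an inhibitor of differentiation factors and a direct BMP target, read 1162 and 1124, against 2749 and 3623, and fell 2.76-fold (log2 -1.47, adjusted p = 0.046). ID2 had 285 and 586 with rapamycin, against 681 and 1061 with DMSO, and the pseudoreceptor BAMBI had 323 and 349.7, against 696 and 777 (adjusted p = 0.075 and 0.085). WNT feedback genes and ligands had a median of -0.58 over 13 members, 9 of them below 0, 1 fell and none rose, with 7 below 0 and 1 above at an unadjusted p under 0.05. AXIN2, the scaffold of the beta-catenin destruction complex that WNT signalling induces, read 30.0 and 57.5 with rapamycin, against 118 and 170.2 with DMSO, and fell 3.41-fold (log2 -1.77, SE 0.23, adjusted p = 0.046). DKK1, a secreted WNT antagonist, had the lowest value of the list, -2.45, with 371 and 86.9 on the rapamycin arrays and 1582 and 611 on the DMSO arrays (adjusted p = 0.075). The ligand WNT7B had 92.1 and 106, against 413 and 284 (adjusted p = 0.055). The osteoblast lineage list, which shares ATF4, ID2 and BMP2 with lists above, had a median of -0.23 over 19 members, 14 below 0, with none called and 4 below 0 and 1 above at an unadjusted p under 0.05. Its lowest member, the osteoblast cadherin CDH11, read 1118 and 1812, against 3026 and 3971 (log2 -1.28, adjusted p = 0.075).

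The other genes that fell are on none of the lists. KLHL14, an adaptor of a ubiquitin ligase, lay at the floor of 20 on both rapamycin arrays, against 250 and 195 on the DMSO arrays, at least 11.1-fold lower (log2 -3.47). It was also at the floor on the 4 arrays with JQ1, so it entered the test through the DMSO arrays alone, where it is high, and its place among the 44 is a description. A second KLHL14 probe was above the floor on 1 of 8 arrays and gave no difference, -0.01. SOX18, a vascular transcription factor, was likewise at the floor on both rapamycin arrays, against 91.9 and 69.2 with DMSO, at least 3.99-fold lower (adjusted p = 0.033). EFNB2, a membrane-bound ephrin ligand, read 54.3 and 80.1 with rapamycin, against 235 and 257 with DMSO, and fell 3.73-fold (adjusted p = 0.033). TFAP2A, a neural crest transcription factor, read 108 and 123, against 414 and 387, and fell 3.47-fold at its brightest probe, while its 4 other probes gave 0.20, 0.27, 0.06 and -1.30, each above the floor on 5 arrays or fewer. NPTX1, a neuronal pentraxin, differed nearly as much between replicates as between treatments. It read 74.8 and 246 with rapamycin, against 271 and 931 with DMSO, and its fall of 3.71-fold shows within pairs. The orphan nuclear receptor NR2F1, the pseudokinase TRIB2 and the protocadherin PCDH7 fell 3.24-fold, 3.24-fold and 3.36-fold. The leucine-rich repeat protein ELFN2 fell 4.09-fold and the splicing factor PRPF38B 2.95-fold.

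CXCL2, a neutrophil chemokine, read 61.0 and 69.1 on the rapamycin arrays and lay at the floor on the DMSO arrays, at least 3.24-fold higher (log2 1.70). It was at the floor on the 4 arrays with JQ1 too, so it entered the test through the rapamycin arrays alone, where it is high, and its place among the 44 is likewise a description. The NF-kB list around it had a median of 0.07 over 17 measured members, 1 of which passed the floor filter through the rapamycin arrays alone, with 6 above 0 and 1 below at an unadjusted p under 0.05. LIF, a cytokine of the interleukin-6 family, had 143 and 192 with rapamycin, against 54.4 and 75.3 with DMSO (adjusted p = 0.067), while BCL3, a nuclear NF-kB cofactor, had 111 and 267, against 444 and 723 (log2 -1.72, adjusted p = 0.066). AP-1 and immediate early genes had a median of 0.68 over 30 members, 22 above 0, none called and 15 at an unadjusted p under 0.05, all above 0. KLF6, a zinc finger factor of that list, read 4152 and 3877 with rapamycin, against 1571 and 1669 with DMSO (log2 1.31, adjusted p = 0.065). KLF9, a glucocorticoid- and stress-responsive factor of the same family, rose 3.40-fold, with 1059 and 1070, against 282 and 348 (adjusted p = 0.026). SGK1, a kinase that mTOR complex 2 activates, rose 2.59-fold with 1887 and 2026, against 845 and 676 (adjusted p = 0.0495), and the survival kinase PIM1 rose with 328 and 225, against 57.2 and 63.6 (log2 2.17, adjusted p = 0.046).

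The remaining genes that rose spanned several functions. RGS16, which switches off G-protein signals, read 176 and 203 with rapamycin, against 20.8 and 20 with DMSO, and rose at least 9.27-fold (log2 3.21, SE 0.43, adjusted p = 0.046). The splicing regulator MBNL2 read 957 and 866, against 193 and 259.7, and rose 4.06-fold, with 2.10 and 1.02 on the log2 scale at 2 other probes. The histone demethylase KDM7A, the calmodulin-binding transcription activator CAMTA2, the winged-helix factor RFX4 and the antisense RNA VLDLR-AS1 lay at the floor on both DMSO arrays and read between 45.9 (RFX4) and 92.7 (VLDLR-AS1) on the rapamycin arrays. Their rises were at least 3.89-fold, 3.42-fold, 2.38-fold and 4.17-fold in that order. A second RFX4 probe, above the floor on 4 arrays, did not show the rise, with a log2 change of 0.01. It read 23.1 and 20 with rapamycin, against 22.6 and 20 with DMSO, at or near the floor. The collagen receptor DDR2, the syntaxin STX3, the death-effector protein DEDD2 and the ciliary transport protein WDR19 rose 2.68-fold, 2.68-fold, 2.52-fold and 2.48-fold. The homeobox factor MKX read 70.0 and 51.5 with rapamycin, against 20 and 20.7 with DMSO, and rose at least 2.96-fold. Outside the rapamycin arrays MKX and CAMTA2 were above the floor on 1 array each, at 20.7 and 20.3. The filter asks for 2 arrays, so both genes entered the test only through the rapamycin arrays, where they are high. Like that of CXCL2, their place among the 44 is a description. RWDD2A, UBALD2 and DORIP1 rose 3.65-fold, 3.08-fold and 3.41-fold. A second RWDD2A probe, above the floor on 3 arrays, did not show the rise, with a log2 change of -0.15. It read 20 and 20 with rapamycin, against 24.7 and 20 with DMSO. Of the 44 called genes 34 rest on a single probe above the filter, and 9 had every array of a group at the floor.

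Markers of cell identity gave no called gene under limma. Of the measured markers, 3 of 10 mesenchymal, 1 of 6 epithelial and 1 of 7 haematopoietic had an unadjusted p under 0.05, all below 0. At that threshold stood 17.7% of all genes, with 8.89% lower. The 14 mesenchymal markers summed to 39599.7 and 46110.5 on the rapamycin arrays, against 44089.7 and 43006 on the DMSO arrays, with COL1A2, COL3A1 and THY1 at the floor on all 8 arrays, so these defining fibroblast genes were not measured in this line. Epithelial markers summed to 1552 and 1529, against 1689.9 and 1930.4, with CDH1, KRT19, KRT5 and KRT14 at the floor throughout. Haematopoietic markers summed to 1072 and 1811, against 1245 and 1908, with PTPRC, CD3E, SPI1 and HBB at the floor. Endothelial markers summed to 189.8 and 195, against 180 and 216, where 180 is the sum of the floor itself, and CDH5, VWF, KDR, TEK and CLDN5 were at the floor. The list of fat, cartilage and muscle markers summed to 1176 and 2472, against 1515 and 3173, with PLIN1, COMP, MYOG, DES and ACTA1 at the floor. Its sums, like the epithelial and haematopoietic ones, were lower with rapamycin than with DMSO within each replicate number, but members differed. CD68, the brightest haematopoietic marker, read higher with rapamycin, at 765 and 1318, against 697 and 1119, while CD14 read lower. PPARG and SOX9 make up most of the fat, cartilage and muscle sum. PPARG read 621 and 1633, against 799 and 2381, and SOX9 334 and 634, against 512 and 592. The arrays come from a single cell line, and what these sums reflect was not tested. Over measured members the 5 lists had medians of -0.12, -0.03, -0.04, 0.17 and 0 in that order. CD14, a monocyte receptor, had the lowest change of these markers, with 51.3 and 164 with rapamycin, against 281 and 476 with DMSO (adjusted p = 0.075).

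The same drug was added on top of JQ1 on arrays that share none with this comparison, and the 44 called genes were read there. Relative to JQ1 alone, 26 of the 30 genes called higher were again above 0 with both drugs and 12 of the 14 called lower were below 0, where 47.5% of all genes were above 0. The median log2 change of the genes called higher was 1.01 with JQ1 and 1.82 without it, and that of the genes called lower was -0.70 with JQ1 and -1.78 without it. The changes were smaller with JQ1 for 40 of the 44, but the genes had been selected on the arrays without JQ1. Under limma 2 genes of all 12759 passed with JQ1 present (0.0157%), with 1860 at an unadjusted p under 0.05 (14.6%), and both are among the 44. CREBRF read 87.7 and 102 with both drugs and lay at the floor with JQ1 alone, a log2 change of 2.24, against 2.42 without JQ1 (SE 0.18 each). FBXO32 read 6053 and 8507 with both drugs, against 815 and 1683 with JQ1, a log2 change of 2.62, against 1.73 without it (SE 0.21 each). CREBRF and FBXO32 thus passed in both settings, and HBP1, KLHL24, PIM1 and UBALD2 had changes of 1.99, 2.21, 2.36 and 1.84 there that did not pass.

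The difference between the drug's effect with and without JQ1 passed for 1 gene (0.00784% of genes), KLHL14, which lay at the floor on all JQ1, combination and rapamycin arrays, where a lower level could not be measured. The value therefore restates its level on the DMSO arrays, and it was not called without the replicate block, without any 1 of the 8 arrays, or with 50 added before log2. At an unadjusted p under 0.05 that difference was present for 930 genes (7.29%). DNAJB9 had log2 changes of 1.72 with JQ1 and 3.22 without it, and GDF15 had 1.52 and 3.80. CXCL2 lay at the floor on the arrays with both drugs and with JQ1, so its change there was 0.00, and CAMTA2 and MKX had 0.01 and 0.00. For none of these 5 genes did the difference pass.

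**Figure D4:**
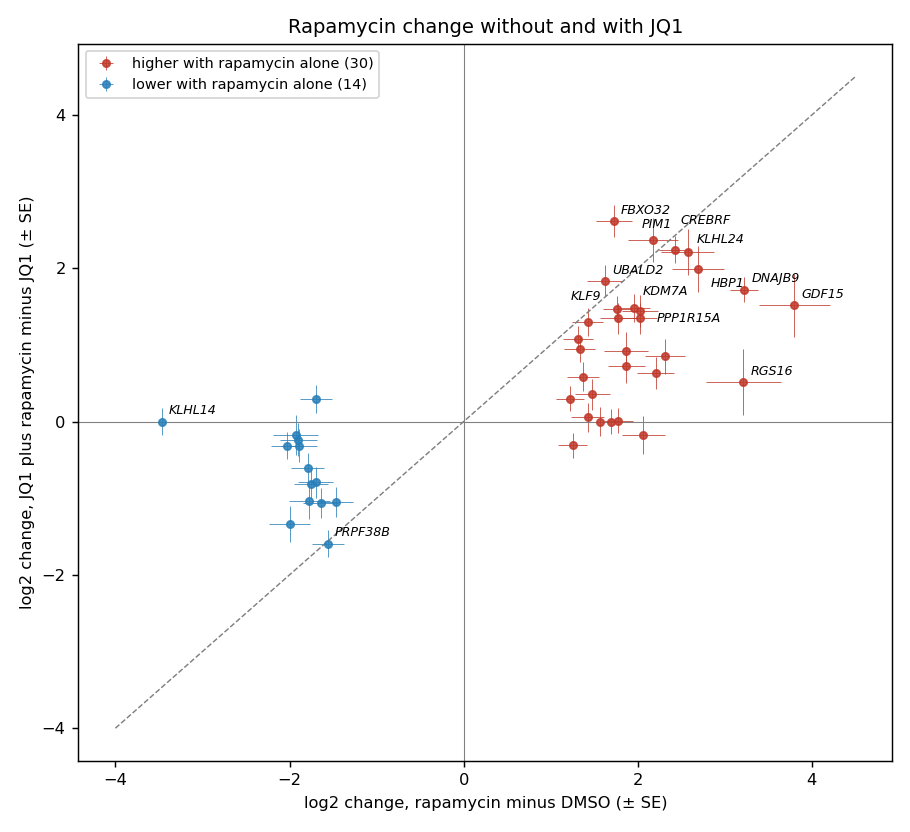
Log2 change of the 44 called genes, rapamycin minus DMSO on the x axis and JQ1 plus rapamycin minus JQ1 on the y axis, with bars of 1 SE and the dashed line at equal change. Of the points, 38 have the same sign on both axes, FBXO32, PIM1 and UBALD2 are the genes called higher that lie above the line, and KLHL14 sits at 0 with JQ1.

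Rapamycin and JQ1 arrays were also compared directly. Of the 44 genes, 38 differed between them at an adjusted p under 0.05 from limma, where 13.6% of all genes did, in a comparison that uses the rapamycin arrays on which the 44 were called. Against DMSO, JQ1 called 11 of the 44, in a comparison that uses the same DMSO arrays and calls 11.2% of all genes. EFNB2 went opposite ways, with log2 changes of -1.90 for rapamycin and 1.84 for JQ1, both called, and 842 and 916 on the JQ1 arrays. KLHL14, at the floor with either drug, had -3.47 for each, ELFN2 -2.03 and -2.07, NR2F1 -1.70 and -1.73, and TRIB2 -1.69 and -2.80. DNAJB9 had 3.22 for rapamycin and 0.66 for JQ1, and the 2 drugs differed there (adjusted p = 0.0031), as they did for GDF15, with 3.80 and -0.29 (adjusted p = 0.0034), and for FBXO32, with 1.73 and -0.62 (adjusted p = 0.0031). CREBRF and CXCL2 were at the floor with JQ1 as with DMSO.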

How the data were processed

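RNA of MNNG/HOS cells was labelled as biotinylated cRNA and hybridised to 8 expression arrays, 2 for each of 4 treatments, per the labels' protocols. The series text names another array maker than the Illumina probe identifiers do. The authors' value table gives linear, normalized intensity with a floor of 20, and a second table gives non-normalized intensity from which the authors had already subtracted a background, as negative values make up 28.3% to 30.3% of each array. No source used here states how the first was normalized. The value table was used, with columns tied to the sample records. The second table, its columns matched to arrays by rank correlation over 14640 probes, served as an alternative only.

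The platform annotation gave 1 symbol for 30102 of the 47304 probes, several for 8 and none for 17194. Symbols of 30063 were updated through RefSeq on GRCh38.p14, for names only. Probes above 20 on at least 2 of 8 arrays entered, log2 was taken of the deposited intensity, and the probe with the highest mean stood for each gene. The tests of changes and interactions used limma 3.58.1 (R 4.3.3), with lmFit and eBayes on all 8 arrays, group means and the replicate number of the titles as a block (3 residual and 3.92 prior degrees of freedom). The pairing comes from those numbers and from the correlations of 0.42 to 0.55, and 1593 genes (12.5%) were called between the 2 replicate numbers. Adjusted p-values are Benjamini-Hochberg values over all genes tested, with 0.05 as the threshold. A fold is the ratio of geometric group means, and it is a lower bound, written "at least", where 1 or both arrays of the lower group were at 20. The fit was tested on simulated data before use. The number of arrays limits the precision.

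Named genes are the called genes, of which 1 is counted but not reported here, up to 4 members of each of the 28 lists with the smallest p, and a short set always included, of which those needed here are given. The members, lists and comparisons were chosen with earlier results of these data known, so no test was run over a list and counts and medians are descriptions. Some genes are on more than 1 list, so the counts of different lists are not separate. Examples are TYMS and RRM2 (nucleotide synthesis and G1/S), ULK1 (mTOR and lysosome) and ATF3 (stress effectors and AP-1). Motifs were chosen, and ASNS, CHAC1, CEBPG, SLC1A5, AARS1, IARS1, LINC02213, IRS1 and BMP2 named, after values were seen. Promoter windows were matched by symbol to RefSeq, with Python 3.11.15. Alternatives changed the block, the arrays used, the filter, the scaling, the offset, the variance model, the probe rule and the threshold.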

Additional observations from a re-analysis of the deposited data

Results flagged for a closer look

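The rapamycin effect on KLHL14 differed between cells with and without JQ1, by 3.47 on the log2 scale with JQ1 minus without it (limma interaction, adjusted p = 0.037). With JQ1 the change was 0.00, since KLHL14 lay at the floor on both combination arrays and both JQ1 arrays. Without JQ1 it was -3.47, with the floor on both rapamycin arrays and 250 and 195 on the DMSO arrays. The gene rests on a single informative probe, and a fall below the floor could not have been measured. The gene passed the floor filter through the DMSO arrays alone, so the difference restates its level there. It was not called without the replicate block, without any 1 of the 8 arrays, or with 50 added before log2.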

How the results depend on the processing

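The direction of the 44 called genes was the same in every alternative in which they were measured, but the count of calls was not stable. For several alternatives the direction could not change, because the rapamycin minus DMSO estimate stays the same. These are the fit without the block, the 4 arrays alone, the trended robust variance and the omission of a JQ1 or combination array. The 44 had also been selected on the same rapamycin and DMSO arrays. Without the replicate block 3 genes were called, all among the 44, and no gene's interaction. With the 4 rapamycin and DMSO arrays alone 0 were called (lowest adjusted p 0.28, with 2085 genes at an unadjusted p under 0.05), and leaving out each array in turn gave 0 to 0, for the interaction too, with lowest adjusted p of 0.0595 to 0.31. Fewer degrees of freedom follow from each omission by construction. Counts were 4 with no filter (1 of the 44 kept), 288 with probes above the floor on all 8 arrays (31 kept), 83 with arrays centred on the median (44 kept, 50 higher and 33 lower), 44 with quantile normalization (41 kept), 373 for log2 of the value plus 50 (43 kept), 713 with a trended robust variance (44 kept, 354 higher and 359 lower), 157 with array weights (44 kept), 93 with the mean of a gene's probes (40 kept) and 541 on the non-normalized signals (43 kept). At adjusted p thresholds of 0.01 and 0.1 there were 2 and 438. The cause of these moves was not tested. The interaction count was 3 with no filter and with a trended robust variance, and 0 with probes above the floor on all 8 arrays and with 50 added.

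FKBP1A, MTOR and HEXIM1, none of them called, turned sign. FKBP1A had log2 changes of -0.14 without DMSO replicate 2, -0.10 without rapamycin replicate 2 and -0.083 with the mean of its probes, and 0.21 without DMSO replicate 1. MTOR had -0.12 without DMSO replicate 1 and -0.06 without rapamycin replicate 2, against 0.22 without DMSO replicate 2. HEXIM1 had 0.08 and 0.12 without those same arrays and -0.79 without rapamycin replicate 1. The alternatives that keep the rapamycin minus DMSO estimate could not move a list median. List medians kept their sign in all alternatives for the lists with medians beyond 0.1 in size, other than the mesenchymal and endothelial markers. That of the stress response effectors ranged from 0.92 to 2.06, that of the unfolded protein response from 0.47 to 0.72, that of G1/S genes from -0.48 to -0.31 and that of BMP feedback genes from -1.02 to -0.52. Values at the floor limit what can be read of weakly expressed genes.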
